A study of Mus musculus with 2 samples.

Results

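The 7 genes described here encode parts of 2 NADPH oxidases of the intestinal epithelium and the GTPase that switches 1 of them on. They are Nox1, Noxo1, Noxa1, Cyba, Rac1, Duox2 and Duoxa2, 7 of the 31053 genes in the matrix, and were chosen by name after their levels in these cells had been measured. The data are single-cell RNA counts from organoids, cultured spheres of epithelium without its muscle, nerve or blood, grown from mouse small intestine. One library is labelled control and 1 melatonin; each pooled 3 organoid lines at day 3 of culture, and the tissue and treatment labels give no strain, sex, age or dose. The title places the question in YAP-driven regeneration with melatonin and prostaglandin E2. The files of the 2 samples were identical, so there was 1 matrix, in which each barcode ends in 1 or 2 and no label or header ties an ending to a treatment. The comparison of control with melatonin was therefore not made. Cells are called set 1 or set 2 after the ending of their barcode alone, a naming unrelated to the set number in the library names, and ratios of set 2 over set 1 have an arbitrary direction. With 1 matrix and no replicates there was no test, and every interval below is a 95% interval for counting error only.

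NADPH oxidases pass electrons from NADPH across a membrane to oxygen. NOX1 makes superoxide and needs the membrane partner p22phox (encoded by Cyba), the organiser NOXO1, the activator NOXA1 and the active form of RAC1, while DUOX2 releases hydrogen peroxide and depends on its maturation factor DUOXA2 to reach the cell surface. In the gut both enzymes are known for the production of reactive oxygen at the epithelial surface, which takes part in host defence and wound repair.

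Of 21806 barcodes, 4066 were kept as cells, 2300 in set 1 and 1766 in set 2, with 61628537 and 51111519 unique molecular identifiers (UMIs, counts of captured RNA molecules) in all and medians of 29872 and 28759 per cell. No kept barcode sequence occurred in both sets. Cells were grouped by the summed UMIs of marker genes, and these groups are ranges of a score, not cell types with sharp borders. Set 1 and set 2 held 305 and 301 enteroendocrine-like cells, 38 and 25 goblet- and Paneth-like cells, 126 and 164 enterocyte-like cells, 14 and 39 annexin-high cells, and 84 and 2 Olfm4-high cells. The rest were split by cell cycle genes into 1118 and 623 G2/M-high, 149 and 280 S-high and 133 and 210 low-cycling cells, and 333 and 122 cells of few UMIs stayed ungated. The hormone genes Sst and Gip, made by enteroendocrine cells and not among the markers used, led the low-cycling group by fold. At least 10 UMIs of Gip were held by 4 of its 133 and 1 of its 210 cells, and of Sst by 0 and 1. The annexin-high cells were picked by markers that include Anxa1, Anxa3, Clu, Ly6a, S100a6 and Msln, genes of the revival state seen after injury. Crct1, Ly6d, Cnfn and Lor, which belong to stratified epithelium, were also among the 10 genes with the largest fold in that group, so it is named here for its annexins. S100a6 nevertheless gave the most marker UMIs in these cells, 3080 in set 1 and 6739 in set 2. Anxa1 gave 188 and 639 and Anxa3 246 and 663. An Anxa1 UMI was found in 12 of 14 and 25 of 39 of the cells, and an Anxa3 UMI in 12 and 28. Between 0.5 and 2 times the score limit lay 125 and 99 cells for the annexin-high group and 111 and 14 for the Olfm4-high group. Blood cell markers were near 0, with Ptprc at 0 UMIs in both sets (3 UMIs would give 0.0487 and 0.0587 CPM) and 7 immune markers summing to 0.925 and 0.685 CPM, which are counts per 1000000 UMIs. Doublet scores were tied at the 95th percentile of each set, and 184 and 93 cells lay at or above it, 8% and 5.27% of the sets. These cells made up 0% of annexin-high cells, 5.95% of the Olfm4-high cells of set 1, and 13.4% and 8.19% of G2/M-high cells.

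The sequences before 2 of the genes are shown because Duoxa2 and Cyba carried the patterns described below. They are the 250 bases before the RefSeq start on GRCm38.p6, at chr2:122298650-122298899 on the + strand for Duoxa2 and chr8:122432941-122433190 on the - strand for Cyba. No annotated exon lies in either window.
Duoxa2: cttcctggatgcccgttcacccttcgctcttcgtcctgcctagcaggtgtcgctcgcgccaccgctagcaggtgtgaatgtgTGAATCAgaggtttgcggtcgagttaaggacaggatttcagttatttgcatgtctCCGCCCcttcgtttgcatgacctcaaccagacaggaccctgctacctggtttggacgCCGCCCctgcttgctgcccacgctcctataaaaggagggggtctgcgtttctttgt
Cyba: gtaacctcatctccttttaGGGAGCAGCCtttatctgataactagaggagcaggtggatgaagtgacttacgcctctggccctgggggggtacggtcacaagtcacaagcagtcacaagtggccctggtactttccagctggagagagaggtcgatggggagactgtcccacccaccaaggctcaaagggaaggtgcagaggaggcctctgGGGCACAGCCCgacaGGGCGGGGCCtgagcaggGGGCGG
Capitals mark matches, on either strand, to AP-1 (TGANTCA), NF-kB (GGGNNNNNCC), STAT (TTCNNNGAA), TEAD (GGAATG) or SP1 (GGGCGG) letters, and 1 NF-kB match of Cyba overlaps an SP1 match. The Duoxa2 window held 1 AP-1 match, at 168 bases before the start, and 2 SP1 matches. The Cyba window held 4 NF-kB and 2 SP1 matches. Its NF-kB matches at 39 and 38 bases before the start are 1 run of letters matched on both strands. The windows of Nox1, Noxo1 and Noxa1 also held NF-kB matches, and that of Noxo1 SP1 matches. Of 32851 RefSeq windows of the same length, 6.75% held an AP-1 match, 45.8% an NF-kB match, 7.02% a STAT match, 12.6% a TEAD match and 32.7% an SP1 match. A match is a run of letters, not a measured binding site. Duox2 and Duoxa2 lie head to head on chromosome 2 with their RefSeq starts 673 bases apart, and the Duox2 window, in which an annotated exon of Duox2 itself lies, held none of these letters. RefSeq windows were found for 6 of the 7 genes.

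Nox1, the catalytic subunit, was close to the limit of detection. It had 18 UMIs in set 1 (0.292 CPM) and 23 in set 2 (0.450 CPM), found in 18 and 14 cells. No set 1 cell held more than 1 Nox1 UMI, while the 3 highest cells of set 2 held 12 of its 23, up to 5 in 1 cell. One annexin-high cell of set 2 held 4 Nox1 UMIs, and it also had UMIs of Duox2 and Duoxa2. In set 1, 13 of the 18 UMIs lay in G2/M-high cells, which held 66.4% of all UMIs of that set. In set 2, S-high cells held 11 of the 23 UMIs, or 47.8%, with 17.1% of all UMIs. Their 1.26 CPM (0.627 to 2.25) lay above the interval of G2/M-high cells, at 0.297 CPM (0.120 to 0.613), but 3 cells held 9 of the 11. In set 1 the intervals of these 2 groups overlapped.

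Among groups of at least 10 cells, Noxo1, the organiser, was highest in annexin-high cells. It reached 69.0 CPM (46.9 to 97.9) in those of set 1 and 63.5 CPM (52.6 to 76.0) in those of set 2, against 12.3 and 10.4 CPM in the other cells of each set. The next levels were 27.1 CPM in the Olfm4-high cells of set 1 and 18.2 and 25.4 CPM in goblet- and Paneth-like cells, whose intervals overlapped each other. G2/M-high, S-high and low-cycling cells lay between 7.996 and 12.7 CPM, with intervals that overlapped within each set. Leaving aside the low-UMI cells, enteroendocrine-like cells had the lowest value, 7.64 and 6.44 CPM, but were not set apart from several other groups. In set 1 their interval overlapped those of enterocyte-like, G2/M-high, S-high and low-cycling cells. In set 2 it (4.38 to 9.15) held the 6.97 CPM of enterocyte-like, the 7.996 CPM of low-cycling and the 8.79 CPM of S-high cells. Noxo1 UMIs were found in 8 of 14 and 22 of 39 annexin-high cells, and the 3 highest cells held 16 of 31 and 61 of 119 of them, up to 27 in 1 cell of set 2. Noxa1, the activator, had 17 and 8 UMIs in all, 0.276 and 0.157 CPM. In set 1, 5 of the 17 lay in 2 annexin-high cells and gave 11.1 CPM there, so that value rests on 2 cells, and its log2 ratio to other cells turned from 3.34 to -0.18 without the 3 highest cells.

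**Figure D1:**
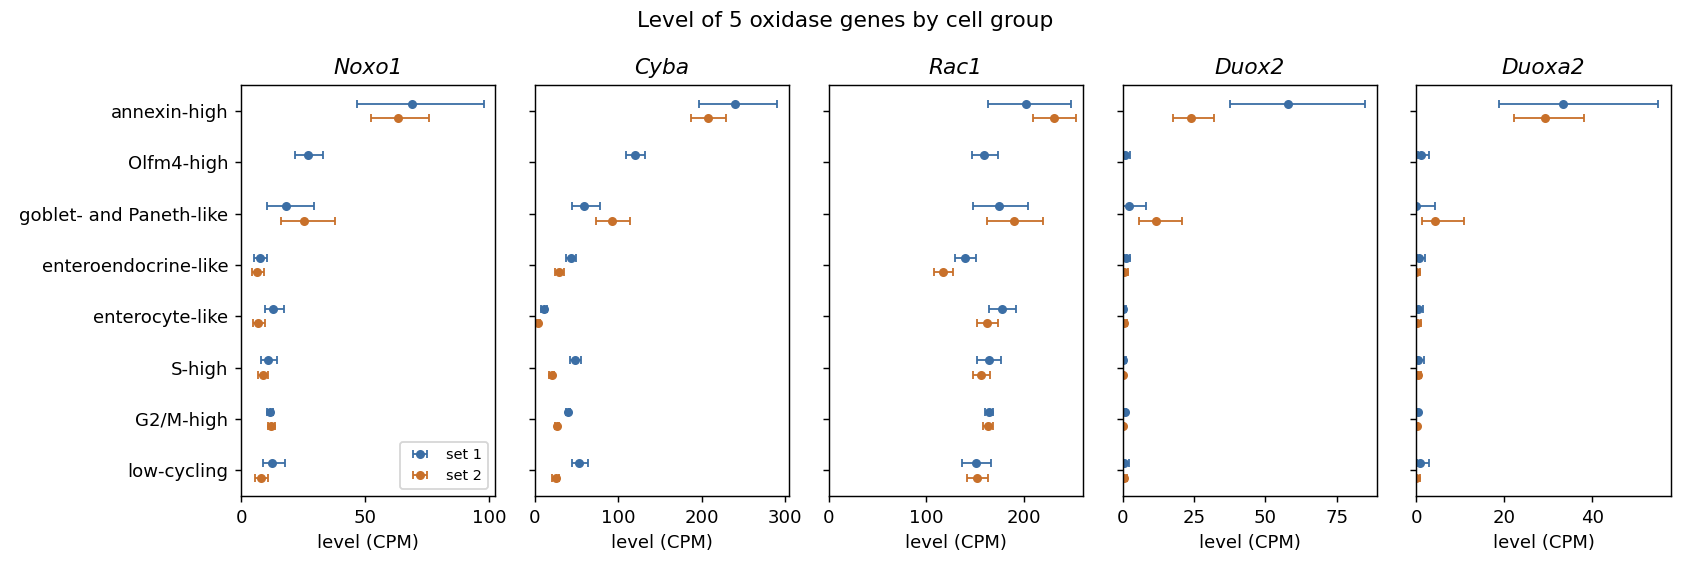
Level of 5 genes in CPM (horizontal axis, linear from 0) by cell group, for set 1 and set 2. Points are summed UMIs of a group over its total, and bars are exact Poisson 95% intervals; the Olfm4-high group is drawn for set 1 alone because set 2 had 2 such cells, and the low-UMI cells are not drawn. Noxo1, Cyba, Duox2 and Duoxa2 have their highest points in annexin-high cells, while Rac1 spans 117 to 230 CPM over the groups drawn.

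Cyba, which encodes the membrane partner p22phox, differed widely between the groups. It stood at 240 CPM (197 to 290.1) in the annexin-high cells of set 1 and 207 CPM (187 to 229) in those of set 2, against 44.2 and 24.8 CPM in other cells. The 3 highest of these cells held 64 of 108 and 141 of 389 Cyba UMIs. Without the 3 highest cells of each group compared, Cyba was still called, at log2 ratios of 1.66 rather than 2.42 and 2.62 rather than 3.02. The Olfm4-high cells of set 1, a group picked by a marker of crypt stem cells, had 119.9 CPM (109 to 132) against 41.2 CPM in other cells, and 70 of the 84 held at least 1 UMI. Cyba was also among the 10 genes with the largest fold in that group. Enterocyte-like cells were the lowest, at 10.3 CPM (7.24 to 14.2) for set 1 and 3.75 CPM (2.32 to 5.74) for set 2, and every other group lay above these intervals in its own set. Enterocyte-like cells also had the highest median mitochondrial share, 13.4% and 14.4% of UMIs against 9.29% and 9.08% over all kept cells, and its part in the low Cyba level was not tested.

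Shares of cells with a Cyba UMI were compared after thinning each cell to 2000 UMIs, which left out 265 and 77 shallower cells. The expected share was 32.8% and 23.8% of annexin-high cells, 17.7% of Olfm4-high cells of set 1, and 2.07% and 0.626% of enterocyte-like cells. Unthinned, the shares were 78.6% and 74.4%, 83.3%, and 18.3% and 8.54%, at median depths of 31994 and 43889, 40575.5, and 32005.5 and 34127 UMIs. As a gauge of free RNA, the enteroendocrine gene Chgb was found after thinning in 10.2% and 8.67% of enterocyte-like cells. Its level there was 52.8 and 39.1 CPM, 1.78% and 1.17% of its level over the whole set. Cyba in these cells was at 22.5% and 11.9% of its own. Chgb is a marker of the enteroendocrine-like group, which was split off first, so its level in other groups is limited by the grouping. How much of the Cyba level in enterocyte-like cells is free RNA was not tested. Chgb was far more abundant than Cyba, so the shares of cells are not compared between the 2 genes.

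Rac1, the GTPase, was nearly even over most groups. Its 10000 and 8138 UMIs gave 162 CPM in set 1 and 159 CPM in set 2. The highest levels, 202 CPM (163 to 249) and 230 CPM (209 to 253), were again in annexin-high cells, and the lowest outside the low-UMI cells, 139.7 and 117 CPM, in enteroendocrine-like cells. G2/M-high, S-high and low-cycling cells lay between 151 and 164 CPM. In no comparison of a group with the remaining cells did Rac1 pass the 1.5-fold limit used here. In annexin-high cells of set 2 its log2 ratio to other cells was 0.56, and it passed that limit under 3 alternatives, with values from 0.63 to 0.75.

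Duox2 and Duoxa2 were rare outside annexin-high cells and concentrated within them. Duox2 had 26 UMIs in the 14 annexin-high cells of set 1 (37.8 to 84.8 CPM) and 45 in the 39 of set 2 (17.5 to 32.1 CPM), against 0.687 and 0.528 CPM elsewhere. Duoxa2 was at 33.4 CPM (18.7 to 55.1) and 29.3 CPM (22.1 to 38.2), against 0.360 and 0.264 CPM elsewhere. Annexin-high cells held 0.729% of all UMIs in set 1 and 3.67% in set 2, but 38.2% and 63.4% of the Duox2 UMIs and 40.5% and 80.9% of the Duoxa2 UMIs.

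Few cells carried these UMIs. Duox2 was found in 6 of 14 and 5 of 39 annexin-high cells and Duoxa2 in 4 of 14 and 5 of 39. The 3 highest cells held 88.5% and 95.6% of the group's Duox2 UMIs and 93.3% and 94.5% of its Duoxa2 UMIs. In set 1 the 3 annexin-high cells with both genes had 12, 9 and 1 Duox2 UMIs beside 3, 5 and 6 Duoxa2 UMIs. In set 2 the 4 such cells had 33, 8, 2 and 1 Duox2 UMIs beside 33, 12, 7 and 2 Duoxa2 UMIs. Neither gene was found in 7 of the 14 annexin-high cells of set 1, and 1 or both in 6 of the 39 of set 2. Of all kept cells, 62 in set 1 and 31 in set 2 held either gene, and 53 and 22 of them held a single UMI in all, which cannot be told apart from free RNA. Without the 3 highest cells of each group compared, the log2 ratio of Duox2 to other cells was 2.68 rather than 5.12 for set 1, and 0.80 rather than 4.03 for set 2, where it was no longer called. That of Duoxa2 was 1.76 rather than 4.66 for set 1, no longer called, and 1.32 rather than 4.58 for set 2.

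**Figure D2:**
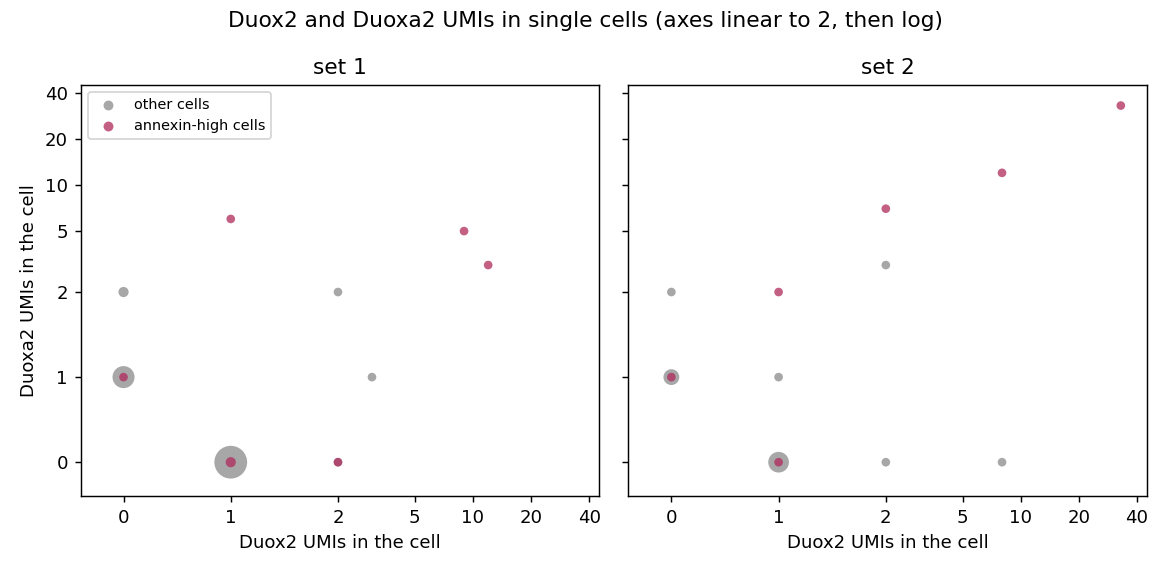
Duox2 UMIs (horizontal) against Duoxa2 UMIs (vertical) in each cell with at least 1 UMI of either, for set 1 and set 2, on axes linear to 2 and logarithmic above. Larger points stand for more cells with the same pair of values. The cells with the most of both genes are annexin-high, up to 33 and 33 UMIs in 1 cell of set 2.

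Outside annexin-high cells, the goblet- and Paneth-like cells of set 2 had 11.6 CPM of Duox2 from 11 UMIs, of which 1 cell held 8. Its log2 ratio to other cells, 2.52, was -1.15 when cells meeting the limits of more than 1 group were left out. The same group in set 1 had 2 UMIs of Duox2 and none of Duoxa2, where 3 UMIs would give 3.42 CPM. Enterocyte-like cells had 0 and 3 UMIs of Duox2 among 126 and 164 cells, and 3 UMIs would give 0.833 CPM in those of set 1. The exact 95% limit for 0 of 126 is 2.89% of such cells holding a Duox2 UMI, which sets no limit on how many express it. G2/M-high cells, the largest group, were at 0.708 and 0.255 CPM.

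**Figure D3:**
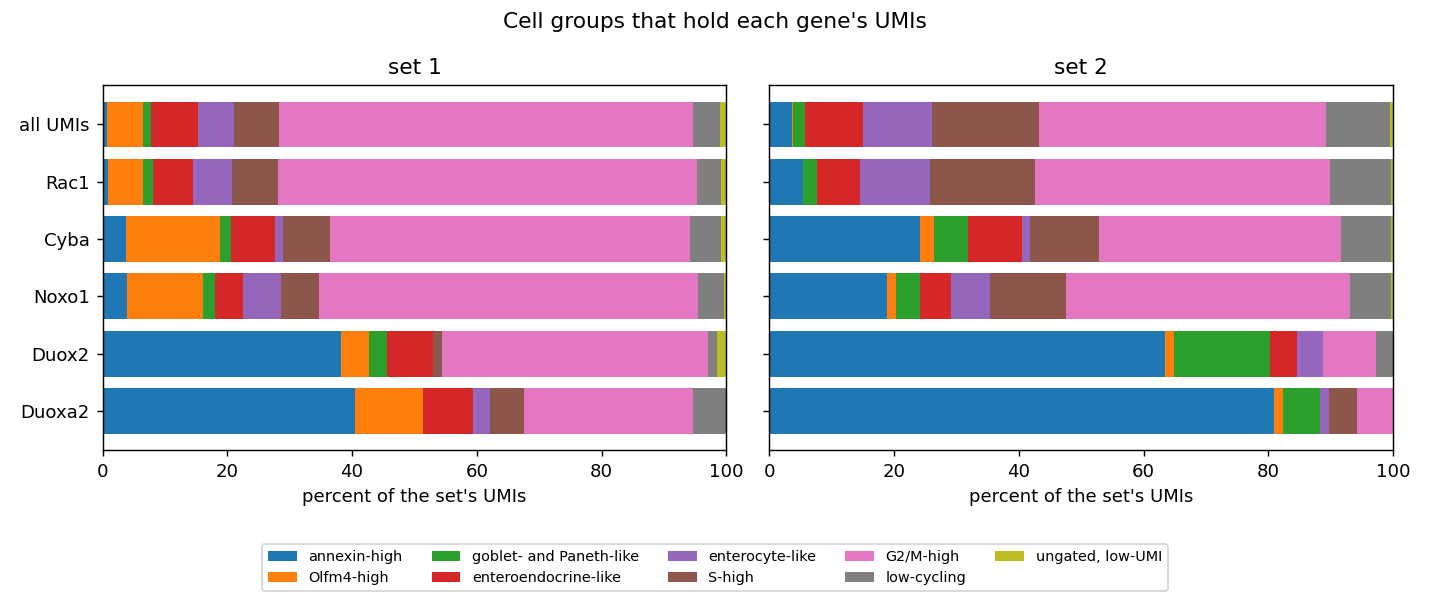
Percent of a set's UMIs (horizontal, 0 to 100) that lie in each cell group, for all genes together and for 5 members. Rac1 follows the bar of all UMIs, whereas the annexin-high part grows to 38.2% and 63.4% for Duox2 and 40.5% and 80.9% for Duoxa2.

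To read the members against all genes, each group was compared with the other cells of its set, and a gene was called when it differed at least 1.5-fold on log2(CPM + 1), with intervals that did not overlap. The members and these groups were known together when the members were chosen, so the counts are a description. In annexin-high cells 5 of 7 members were called higher in set 1 (Noxo1, Noxa1, Cyba, Duox2 and Duoxa2), where 8.71% of all tested genes were called higher. In set 2, 4 of 6 tested members (the same without Noxa1) were called higher, against 9.26% of all tested genes. The median log2 ratio of the tested members was 2.42 and 2.76, and that of all tested genes -0.23 and -0.06. Olfm4-high cells of set 1 had 2 of 7 members higher, Noxo1 and Cyba, against 1.07% of genes called higher. Goblet- and Paneth-like cells had 0 of 7 members called in set 1 (13.1% of genes, either direction) and 3 of 6 higher in set 2 (8.33% of genes higher), namely Noxo1, Cyba and Duox2. Without the 3 highest cells none of these 3 was called, and Duox2 stood at a log2 ratio of -0.42. Without cells of more than 1 group, Cyba (0.76) was still called, while Noxo1 (0.13) and Duox2 were not. In enterocyte-like cells Cyba was called lower in both sets, and Noxo1 and Duoxa2 in set 2 as well, 1 of 7 and 3 of 6 members against 23.8% and 31.7% of genes called lower. In enteroendocrine-like cells 1 of 7 members was called lower in set 1 (Noxo1) and 2 of 6 in set 2 (Noxo1 and Duoxa2), against 14.7% and 16.9% of genes called lower. The Noxo1 calls remained under 11 and 13 of 14 alternatives and that of Duoxa2 under 11. In set 2 the enterocyte-like calls of Noxo1 and Duoxa2 remained under 10 and 8 of 14 alternatives, and the log2 ratio of Duoxa2 was above 0 under 2 of them. Both lower calls of Duoxa2 in set 2 are against other cells that include the annexin-high ones, which held 55 of its 68 UMIs. All cells outside the annexin-high group stood at 0.264 CPM, within the interval of the enterocyte-like cells (0.00452 to 0.996) and under the 0.624 CPM that 3 UMIs would give in the enteroendocrine-like cells, which had 0. Nox1 and Rac1 were called in 0 of 9 such comparisons.

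Cyba and Noxo1 were also higher at the top scores than at none, but neighbouring steps were not always set apart. Among cells of at least 5000 UMIs outside the enteroendocrine-, goblet- and Paneth- and enterocyte-like groups, Cyba was at 41.3 CPM in set 1 and 22.5 CPM in set 2 where no annexin-gate marker was found. It was at 58.1 and 25.4 CPM at a score above 0 but under 1 marker UMI per 10,000, and at 98.2 and 58.2 CPM between 1 and 3, below the limit of the annexin-high group. Between 3 and 6, from that limit up, it was at 82.9 CPM (30.4 to 180.5) in 6 cells of set 1, of which 1 had the marker UMIs to count as annexin-high, and at 141 CPM in 25 cells of set 2, of which 23 had. At 6 or more it reached 251 and 289 CPM, in 13 and 16 cells. Of these, 13 and 15 were annexin-high, so this step repeats the result of that group. The Cyba intervals of the first 2 steps overlapped in set 2, and those from 1 to 3 and from 3 to 6 in set 1. Noxo1 was at 10.9 and 8.50 CPM at no marker UMI, 24.3 and 28.9 CPM between 1 and 3, 27.6 and 32.6 CPM between 3 and 6, and 74.1 and 99.4 CPM at 6 or more. The Noxo1 intervals of the steps from 1 to 3 and from 3 to 6 overlapped, and in set 2, 86 of the 119 Noxo1 UMIs of annexin-high cells lay in the 15 of them at 6 or more. Duox2 was at 0.680 and 0.283 CPM at no marker UMI. It had 0 and 2 UMIs in the 41 and 57 cells between 1 and 3, where 3 UMIs would give 2.92 and 1.31 CPM. Between 3 and 6 it had 0 and 2 UMIs, and at 6 or more it was at 62.2 and 49.1 CPM. In set 2, 43 of the 45 Duox2 UMIs of annexin-high cells lay in the same 15. Rac1 was at 164 CPM (160 to 168) and 159 CPM (154 to 164) at no marker UMI. At 6 or more it was at 196 CPM (156 to 243) and 264 CPM (231 to 300), with intervals apart from those at no marker UMI in set 2 alone. Median depth was 34932 and 31120 UMIs at no marker UMI, 20049 and 39426 between 1 and 3, 9439.5 and 35963 between 3 and 6, and 32882 and 52634.5 at 6 or more; its part in the levels was not tested.

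Along the Olfm4 score of set 1, Cyba was at 39.99 CPM with no Olfm4 UMI, 58.3 CPM under 1 per 10,000, 85.2 CPM from 1 to 4 and 161 CPM at 4 or more, with intervals apart at each step. Noxo1 was at 11.5, 15.6, 22.3 and 30.05 CPM, where the intervals of neighbouring steps above 0 overlapped. Rac1 stayed between 157 and 165 CPM over these steps. In set 2, where Olfm4 was rare, the 36 cells above 0 but under 1 per 10,000 had 83.0 CPM of Cyba and 44.7 CPM of Noxo1, against 31.3 and 11.99 CPM at no Olfm4 UMI. Annexin-high cells were among both: 2 of the 36 held 40 of the 128 Cyba UMIs, and 36 cells at no Olfm4 UMI held 349 of 1185. With annexin-high cells left out, Cyba was at 62.7 CPM (50.3 to 77.2) against 23.1 and Noxo1 at 42.7 CPM (32.6 to 55.0) against 9.52. The bounds of these steps were set after the levels of the groups had been seen.

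**Figure D4:**
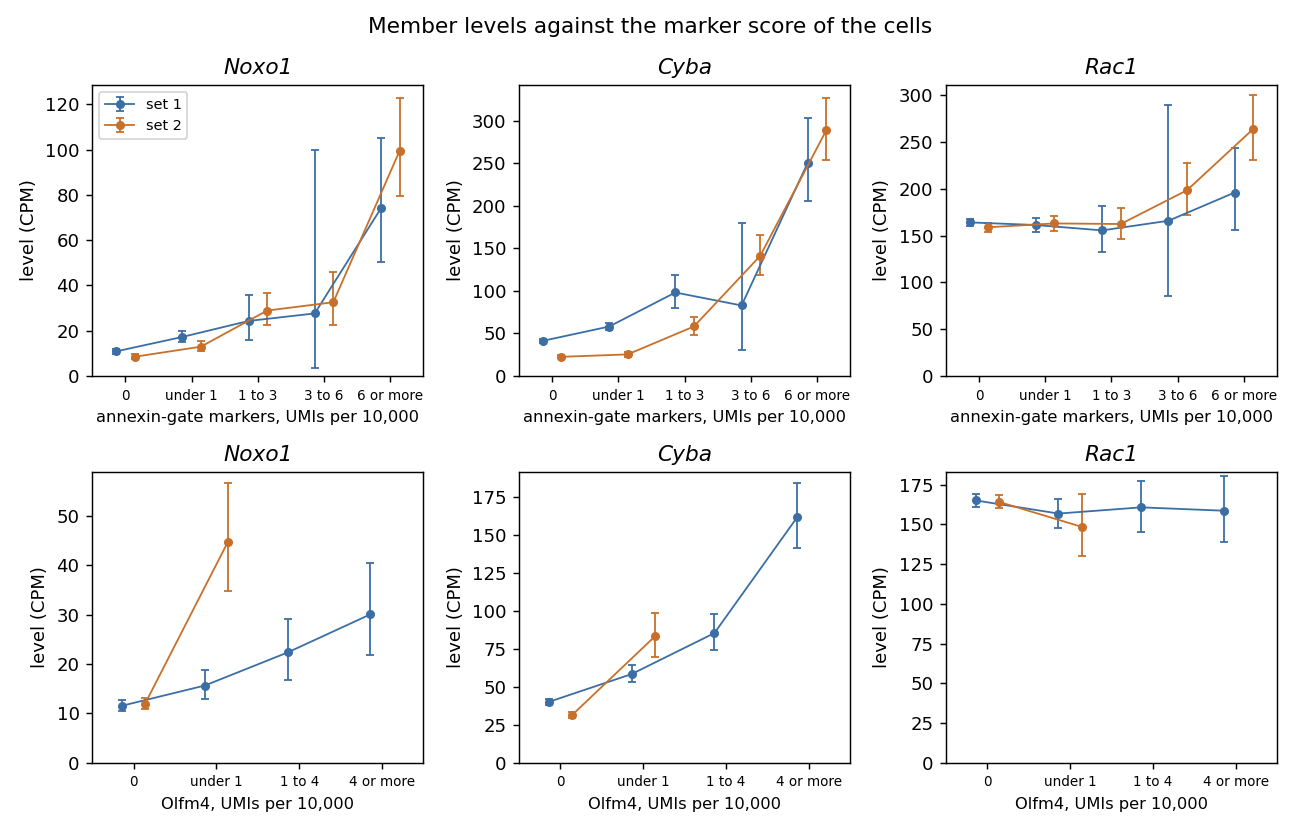
Level of Noxo1, Cyba and Rac1 in CPM (vertical, from 0) in cells ordered by the annexin-gate score (upper panels) and the Olfm4 score (lower panels), in marker UMIs per 10,000. Bars are exact Poisson 95% intervals, and steps of fewer than 6 cells are left out. Cyba ends at 251 and 289 CPM in the upper panels and at 161 CPM in set 1 in the lower. Rac1 ends at 196 and 264 CPM in the upper panels and lies between 157 and 165 CPM in set 1 in the lower.

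Noxo1 and Cyba were often found in the same cells. Of cells with a Noxo1 UMI, 63.5% in set 1 and 49.1% in set 2 also held a Cyba UMI, against 40.4% and 28.4% of cells without one. Cells with both had median depths of 39361 and 42135.5 UMIs, above those of all kept cells, and the part of depth was not tested. A Noxo1 UMI was found in 13 of the 15 set 2 cells with Duoxa2 and in 8 of the 23 set 1 cells with it.

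Between the barcode sets none of the 7 members was called, against 3.86% of 15474 tested genes. Cyba was at 45.6 CPM (44.0 to 47.4) over set 1 and 31.5 CPM (29.9 to 33.0) over set 2, a log2 ratio of -0.52. It was lower in set 2 in 7 of 8 groups (the low-UMI cells included), with intervals apart in 5: enteroendocrine-like (43.2 and 29.1 CPM), enterocyte-like (10.3 and 3.75), G2/M-high (39.6 and 26.5), S-high (48.1 and 20.2) and low-cycling cells (53.4 and 24.7). The exception was the goblet- and Paneth-like group, at 59.3 and 92.1 CPM with overlapping intervals. Leaving out the 3 highest cells of each set gave -0.61, past the 1.5-fold limit. Over all kept cells Noxo1 was at 12.7 and 12.3 CPM and Rac1 at 162 and 159 CPM, each with overlapping intervals. Within groups, intervals were apart in 1 of 8 for each: Noxo1 was lower in the enterocyte-like cells of set 2 (13.1 and 6.97 CPM) and Rac1 in its enteroendocrine-like cells (139.7 and 117 CPM). Duoxa2 was at 0.600 CPM (0.423 to 0.828) and 1.33 CPM (1.03 to 1.69), a log2 ratio of 0.54 that fell to -0.06 without the 3 highest cells. Duox2 was at 1.10 and 1.39 CPM over all kept cells with overlapping intervals, but within annexin-high cells it was lower in set 2, at 57.8 CPM (37.8 to 84.8) and 24 CPM (17.5 to 32.1) with intervals apart and most of the UMIs in 3 cells of each set. The annexin-high cells of the sets were not alike, with median annexin scores of 36.5 and 5.22 per 10,000, and at a score of 6 or more the Duox2 intervals overlapped, 62.2 CPM (40.6 to 91.1) and 49.1 CPM (35.6 to 66.2). Set 2 had more annexin-high cells (2.21% against 0.609%) and fewer Olfm4-high cells (0.113% against 3.65%). The annexin-high counts, 14 and 39, were 38 and 48 without the minimum of marker UMIs and 13 and 21 with the limits doubled. Totals over all cells therefore mix levels with the make-up of the sets.

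**Figure D5:**
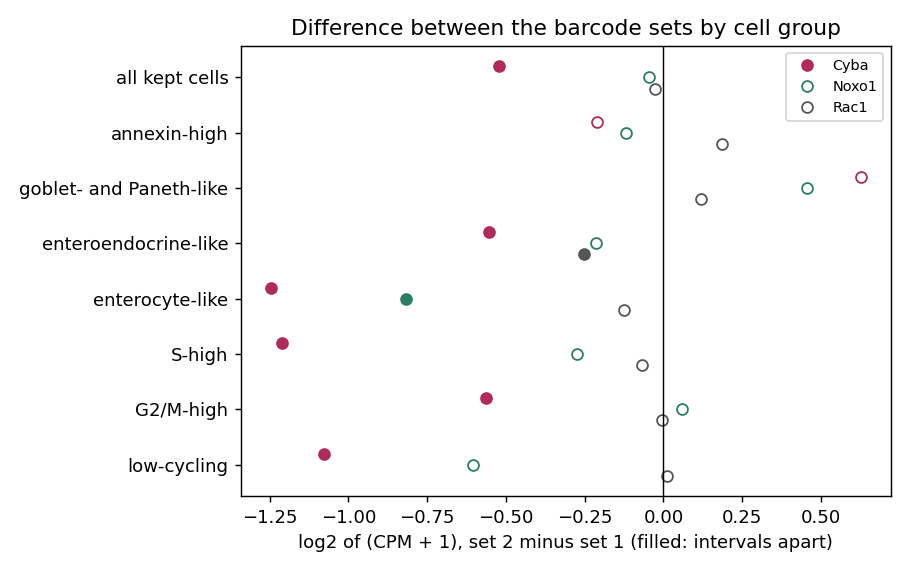
Difference between the sets on log2(CPM + 1), set 2 minus set 1 (horizontal), for Cyba, Noxo1 and Rac1 in all kept cells and by cell group. Filled points have 95% counting intervals that do not overlap. Cyba lies left of 0 in all kept cells and in 6 of the 7 groups drawn, and 5 of those groups are filled.

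Most other genes of the oxidase family had few or no UMIs. Of 13 such genes, Cybb (the phagocyte catalytic subunit), Nox3 and Ncf4 had 0 UMIs, where 3 UMIs would give 0.0487 and 0.0587 CPM. Nox4 had 3 and 2 UMIs and Duox1 0 and 1. Duoxa1, the partner of Duox1, had 9 and 5. The phagocyte organiser Ncf1 had 11 and 15 UMIs. Poldip2, whose protein is known to bind p22phox, was at 53.7 and 53.2 CPM. Rac3, a relative of Rac1, was at 15.4 and 13.6 CPM, and Cybc1, a chaperone of the phagocyte enzyme, at 6.56 and 8.31 CPM. Between the sets 0 of the 6 tested were called.

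Genes around the oxidases were counted from lists chosen by function, and each count is to be read against the 3.86% of all tested genes called between the sets in either direction. Of 9 tested regulators of Rac, 1 was called between the sets: Arhgdig was lower in set 2 (103.9 against 49.9 CPM). Of 7 genes that supply NADPH, Me1 (malic enzyme) was called higher in set 2, at 24.2 against 42.1 CPM. Of 15 tested genes that remove superoxide and peroxide, 2 were called higher, Gpx2 (524 and 939.7 CPM) and Gpx3 (1.18 and 2.29 CPM), both glutathione peroxidases. Of 9 tested epithelial defence genes, Cxcl5 (0.130 and 2.19 CPM) was called higher and the antibacterial lectin Reg3g (11.4 and 5.03 CPM) lower. Gpx3 and Cxcl5 lie below the 10 CPM asked of named genes and are given after their values were seen.

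In annexin-high cells Gpx2 was at 1885 and 1944 CPM against 514 and 901 CPM elsewhere, and was called in both sets. The chemokine Ccl20 was at 427 and 214 CPM against 19.4 and 23.1, and was also called higher in both. Cxcl5 was at 45.3 CPM in the annexin-high cells of set 2, which held 85 of its 112 UMIs there, and at 0 UMIs in those of set 1, where 3 UMIs would give 6.67 CPM. Outside annexin-high cells Cxcl5 was at 0.131 and 0.548 CPM. Pigr, the receptor that carries IgA across the epithelium, was called lower in both, at 127 and 139 CPM against 568 and 586, as were 5.02% and 7.77% of tested genes. Nos2, which makes nitric oxide, was at 18.1 CPM in set 2 against 0.223, from 34 UMIs. In the annexin-high cells of set 1 it had 2 UMIs, or 4.45 CPM, below the 6.67 CPM that 3 UMIs would give. Me1 was called higher in set 1 (117.9 against 23.5 CPM) and not in set 2. These genes were taken from the same lists after their values were seen. Of 7 NADPH supply genes, 3 and 0 were called higher in annexin-high cells, against 8.71% and 9.26% of all tested genes. Of 15 tested genes that remove superoxide and peroxide, 3 and 2 were called higher and 1 and 1 lower. Of the defence genes, 2 of 8 tested in set 1 and 5 of 9 in set 2 were called higher, and 1 in each lower.

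The genes whose levels ran most like a member's were ranked by Pearson's r of log2(CPM + 1) over 15 group-and-set combinations of at least 30 cells, among 10387 genes. Cyba was followed by Dus3l (r = 0.94) and Cox6b2 (0.91), and Noxo1 by Pfn1 (0.93), the actin-binding profilin. Rac1 was followed by Hprt (0.95). For Duox2 and Duoxa2 the annexin-high cells of set 2 are the 1 combination with a high level, which alone would set their ranking, so none is given. That combination is also the highest for Noxo1 (63.5 CPM), Cyba (207 CPM) and Rac1 (230 CPM), and its weight in their rankings was not tested. The low-UMI cells of both sets are among the 15, with 3 and 2 Noxo1 UMIs. The combinations share libraries and cells' depths, and the ranking is a description. Nox1 and Noxa1 had too few UMIs to be ranked.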

How the data were processed

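The authors deposited raw UMI counts for every gene in every barcode. Per the submitters' processing notes the tools were bcl2fastq 2.20.0, Cell Ranger 3.1.0 and STAR 2.7.3a; the genome build and the use of strand in counting are not given in the sources used here. In the annotation Noxo1, Noxa1, Cyba, Rac1 and Duoxa2 overlap a gene on the other strand (Tbl3, Entpd8, Gm20388, Daglb and Duoxa1 among them) and Nox1 overlaps Xkrx on its own strand and Arl13a and Cstf2 on the other. The 3 files of each sample were byte-identical between the samples and were used once. Cybc1 was found by its identifier.

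Kept barcodes had 500 genes or more, 1000 UMIs or more and no more than 20% of UMIs from mitochondrial genes. The members, lists and groups were chosen with earlier results of these data known. Scores were marker UMIs per 10,000. In a fixed order a cell joined the first group whose limit it met: enteroendocrine 20, goblet and Paneth 50, enterocyte 50, annexin 3, Olfm4 1. Cells under 5000 UMIs were then set apart, and the rest split at 8 (G2/M) and 5 (S); 161 cells met more than 1 of the differentiated limits. The minimum of 5 marker UMIs per group and the low-UMI group were added after a first look. Summed UMIs were scaled to CPM with exact Poisson intervals; genes under 10 UMIs were not called, and the pseudocount of 1 CPM understates changes of low genes. Shares have exact Clopper-Pearson intervals. The limit used for a level of 0 is the level that 3 counts would give. Between genes, 3' counts were compared only for the annexin-gate markers and for Chgb beside Cyba. The rule for other named genes was a call between the sets at 10 CPM or more. Scrublet (scanpy 1.11.5) marked 14 of 4066 cells (0.344%), too few to be a working doublet call, so none was removed. The call rule and the thinning were tested on simulated data (numpy 2.4.6, scipy 1.17.1). Alternatives are given at the end.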

Additional observations from a re-analysis of the deposited data

How the results depend on the processing

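No paired analysis was possible because the result comes from no test. Between the sets the count of members called moved from 0 to 1 under 4 of 10 alternatives: Duoxa2 higher at a mitochondrial limit of 10% (log2 ratio 0.78) and at a pseudocount of 0.1 CPM (1.03), and Cyba lower when cells' own CPM were averaged (-0.61) and without the 3 highest cells (-0.61). Over the 9 comparisons of groups, 21 calls were made, 13 without the 3 highest cells, and 14 to 24 under the 13 other alternatives. At the 10% limit the annexin-high group of set 1 had too few cells for a comparison. Called values that changed sign were Duoxa2 in enterocyte-like cells of set 2 at the 10% limit (0.12) and with limits halved (1.61), Duox2 in goblet- and Paneth-like cells of set 2 without the 3 highest cells (-0.42) and without cells of more than 1 group (-1.15), and Noxa1 in annexin-high cells of set 1 without the 3 highest cells (-0.18). Duox2 in enterocyte-like cells of set 2, not called, changed sign with limits halved (1.76). Cyba and Noxo1 remained called in the annexin-high group under all alternatives run, 13 in set 1 and 14 in set 2, Cyba between 1.66 and 2.68 and between 2.62 and 3.27. After thinning to 2000 UMIs 1 member, Cyba, had intervals apart between the sets, as at 5000, and without thinning 2 had.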

Other observations

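Barcodes above 20% mitochondrial UMIs, 6110 in set 1 and 3671 in set 2, were not kept as cells. They enter the comparisons only under the alternative without a mitochondrial limit. Per 1000000 non-mitochondrial UMIs they held 17.8 and 19.7 Noxo1 UMIs against 14.1 and 13.6 in the kept cells, and 65.0 and 34.2 Cyba UMIs against 50.6 and 34.8. Rac1 was lower in these barcodes than in kept cells in both sets, at 137 and 138 against 179.8 and 176. The Cyba gap between the sets was present in them too, with intervals of 61.1 to 69.0 and 31.1 to 37.5.

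Set 2 had 2 Olfm4-high cells, too few for a comparison. One of them held 36 Cyba, 9 Noxo1, 1 Duox2 and 1 Duoxa2 UMIs among 32786.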
